A study of Drosophila melanogaster with 3 samples.

Results

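The genes described here are magro (mag), Lip1, Lip2, Lip3, Lip4 and CG8093, 6 acid lipase genes of Drosophila melanogaster, set among the 9756 named genes that were measured. Each was taken by its gene symbol in the annotation of the array, and each had 1 probe with a value on every array, so that all 6 members were tested. RNA of the larval midgut was hybridised on 3 arrays with 2 channels. The first channel (635 nm, Cy5) held the midgut of animals with the genotype EcRM554fs/EcRV559fs, in which no isoform of the ecdysone receptor EcR is functional. These animals had been carried through earlier larval life with the heat shock inducible transgene hs-EcR-B230.1 and were taken at stage 2a, where they arrest late in the third larval stage. The second channel (532 nm, Cy3) held 1 common pool, made by mixing midguts of the wild-type strain Canton S taken at various stages. The mutant samples were independent of each other per the labels and are called replicates 3, 4 and 6 after their titles. The age in hours and the number of animals in a sample were not stated in the labels.

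Acid lipases split fatty acids from triglycerides and cholesterol esters, and their relatives in mammals include gastric lipase and the lysosomal acid lipase. In the fly midgut, magro is secreted into the gut lumen, where it breaks down dietary triglyceride, and it also clears cholesterol esters in the cells of the gut wall. Its gene is known as a target of Hr96, a nuclear receptor that responds to sterols. Ecdysone, acting through EcR and its partner, starts metamorphosis, during which the larval midgut is replaced by the adult one.

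All values are log2 ratios of the EcR mutant midgut over the pooled reference, with each array centred on its median. The direction is likely and not stated: the labels name the mutant as channel 1, while the numerator is not marked in the value table, and every sign below would turn if the ratio ran the other way. A ratio holds the genotype, the mixed stages of the pool, the strain, the heat shock treatment and the dye, since no wild-type midgut of stage 2a was used and all arrays had 1 dye orientation, and these cannot be told apart. In whole midgut, more cells of a type and more RNA per cell cannot be told apart. The test was limma's moderated test of the mean against 0, two-sided, with Benjamini-Hochberg adjustment over 13026 features and a threshold of 0.05. The number of arrays limits the precision.

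EcR itself had log2 ratios of 1.72, 0.57 and 2.19 on replicates 3, 4 and 6 (mean 1.49 ± 0.83 SD, n = 3; limma adjusted p = 0.0044). Without replicate 3 the mean was 1.38 and the adjusted p was 0.0552. The labels do not say whether this probe picks up transcripts from the rescue transgene or the mutant EcR alleles, so it does not check the genotype. Of the midgut markers, 8 of 9 tested were higher in the mutant and 0 were lower, with a median log2 ratio of 1.48. The 8 were alphaTry, betaTry, Jon25Biii, Jon65Aii, Mal-A1, Amy-p, Vha100-4 and Muc55B. The marker that did not pass was GATAe, at 0.012 (limma adjusted p = 0.902). Over all features tested, 13.4% were higher and 23.7% lower. Among markers of other tissues, 3 of 4 for the fat body were lower (median -0.69), as were 3 of 3 for trachea and cuticle (median -0.87). Those of the salivary gland (1 higher of 3), the hemocytes (1 higher and 2 lower of 4), the muscle (1 higher of 3) and the Malpighian tubule (1 higher and 1 lower of 3) had medians between -0.17 and 0.20. Medians near 0 do not show the single markers that moved further. The hemocyte marker crq was at -1.14, and the Malpighian tubule markers Irk2 and Irk1 were at -1.03 and 0.64. The fat body calls numbered 2 without replicate 3 and 4 without replicate 4, all lower. The files hold ratios and no levels, so it could not be seen whether any of these markers was absent. Midgut markers other than GATAe moved the same way as the called lipase genes below, and their part in the result was not tested.

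The lipase genes fell into 3 that stood near 9-fold higher in the mutant, Lip4 with a smaller rise, and 2 with ratios near 0. In all, 4 of the 6 were higher and 0 lower, 2 failed the test, and the median log2 ratio was 1.88. Over all 13026 features tested, 37.0% passed, 13.4% as higher and 23.7% as lower, with a median of 0.0081. The split over all features depends on where 0 is set: 36.1% of the calls were higher, against 52.7% on the values as deposited and 18.6% with the arrays centred on probes of chemosensory receptor genes. A passing ratio of at least 3, which is 8-fold, was reached by 13 features (0.0998%), and mag, Lip3 and CG8093 were among them. Since the genes were chosen with earlier results of these data known, the count describes them and is not independent evidence of their direction.

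CG8093, which belongs to the acid lipase family by sequence and has no name of its own, gave log2 ratios of 3.45, 3.26 and 3.25 on replicates 3, 4 and 6. The arrays spanned a range of 0.20, and all were far above 0. The mean was 3.32 ± 0.11 (SD, n = 3), a 9.99-fold higher level in the mutant with a 95% interval of 8.94-fold to 11.2-fold (limma adjusted p = 1.25e-06). Among named genes it ranked 7, 10 and 16 from the top on replicates 3, 4 and 6, and 9 by its mean. The SD of CG8093 was larger than that of 10.8% of the 74 features that were at least 4-fold higher, for which the median SD was 0.24.

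The gene mag gave 3.07, 2.87 and 3.41 on replicates 3, 4 and 6. Replicate 6 was the highest and replicate 4 the lowest, and no array came near 0. The mean of 3.12 ± 0.28 (SD, n = 3) corresponds to an 8.67-fold higher level in the mutant, with a 95% interval of 7.32-fold to 10.3-fold (limma adjusted p = 4.89e-06). It ranked 12, 14 and 8 on the same arrays and 10 by its mean. Hr96, the gene of the receptor known to act on mag, was also higher, with 0.62, 0.89 and 0.72 (mean 0.75 ± 0.14 SD, n = 3; limma adjusted p = 2.43e-04). Both Hr96 probes were above 0 on every array, with means of 0.95 and 0.54. Whether the rise of Hr96 bears on that of mag was not tested.

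Lip3, which encodes an acid lipase close to magro in family, gave 2.32, 3.50 and 3.29 on replicates 3, 4 and 6. Replicate 3 was 1.18 below replicate 4, the widest range of the 6 genes, while all arrays stayed above 2. The mean was 3.04 ± 0.63 (SD, n = 3), an 8.21-fold higher level in the mutant with a 95% interval of 5.87-fold to 11.5-fold (limma adjusted p = 4.78e-05). Among named genes it ranked 41, 7 and 13 on these arrays and 11 by its mean. The SD of Lip3 exceeded that of 94.6% of the features that were at least 4-fold higher.

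Lip4, an acid lipase gene known in fly cells as a target of the insulin-regulated factor FOXO, gave 1.24, 0.45 and 0.47 on replicates 3, 4 and 6. Replicate 3 stood apart from the other arrays, which nearly coincided, and replicate 3 was also the array on which Lip3 was lowest. The mean was 0.72 ± 0.45 (SD, n = 3), with a 95% interval of 0.36 to 1.08 on the log2 scale, and passed the test (limma adjusted p = 0.00942). Without replicate 3 the mean fell to 0.46 and still passed (adjusted p = 0.017). That mean is under the one on all arrays by more than 1.5 times, so the size for Lip4 rests on replicate 3. It ranked 208, 513 and 606 among named genes.

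Lip1 gave 0.18, 0.10 and 0.16 and Lip2 gave 0.15, 0.09 and 0.20 on replicates 3, 4 and 6. Both genes were slightly above 0 on all arrays, with overlapping ranges. Their means of 0.15 ± 0.043 and 0.15 ± 0.057 (SD, n = 3 each) did not pass the limma test (adjusted p = 0.0937 for Lip1 and 0.097 for Lip2), and their 95% intervals reached at most 0.29 on the log2 scale, from 0.0070 for Lip1 and 0.0052 for Lip2. On the values as deposited both passed, with 0.21 each (adjusted p = 0.0298 for Lip1 and 0.0329 for Lip2). On receptor centring they were at 0.047 and 0.048. The 105 chemosensory receptor genes tested, which have roles in sensory neurons, had a median of 0.093, with the 10th to 90th percentile from -0.031 to 0.21. Both genes lay inside that range. The receptors were not all unchanged: 14 passed as higher and 5 as lower, 18.1% against 37.0% over all features, and the lowest mean was -1.35.

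**Figure D1:**
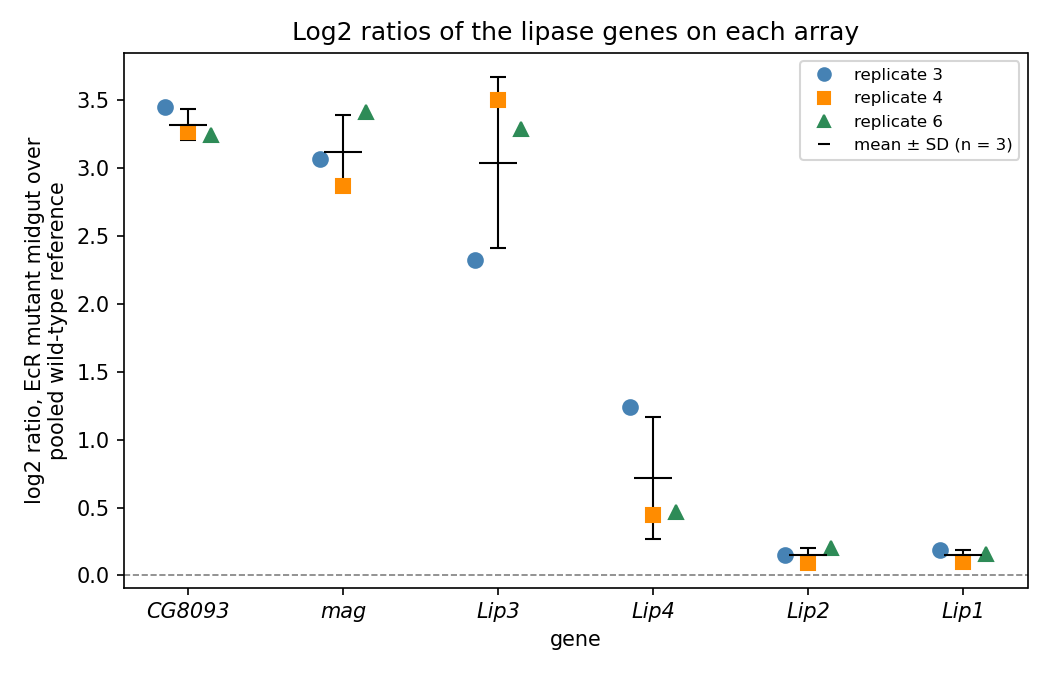
Log2 ratio of the EcR mutant midgut over the pooled wild-type reference for each of the 6 lipase genes on each array, with the mean and SD of 3 arrays. CG8093, mag and Lip3 lie between 2.32 and 3.50, Lip4 between 0.45 and 1.24, and Lip2 and Lip1 between 0.09 and 0.20.

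In the order of their mean ratios, CG8093, mag and Lip3 were neighbours whose values on the arrays overlapped. The difference of mag minus Lip3 was 0.75 on the array where it was highest and -0.63 where it was lowest, with a mean of 0.079 ± 0.69 (SD, n = 3). CG8093 was above mag on 2 of 3 arrays, with mag minus CG8093 at -0.20 ± 0.32, and it was below Lip3 on 2 of 3 arrays. Lip3 exceeded Lip4 on all arrays, by 1.08 at the least and 3.06 at the most. Lip1 lay below Lip4 on all arrays, by -0.57 ± 0.42 on average, while Lip1 minus Lip2 ranged from -0.045 to 0.032. These are differences between ratios and not between levels of RNA, and the 15 pairs were not tested.

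**Figure D2:**
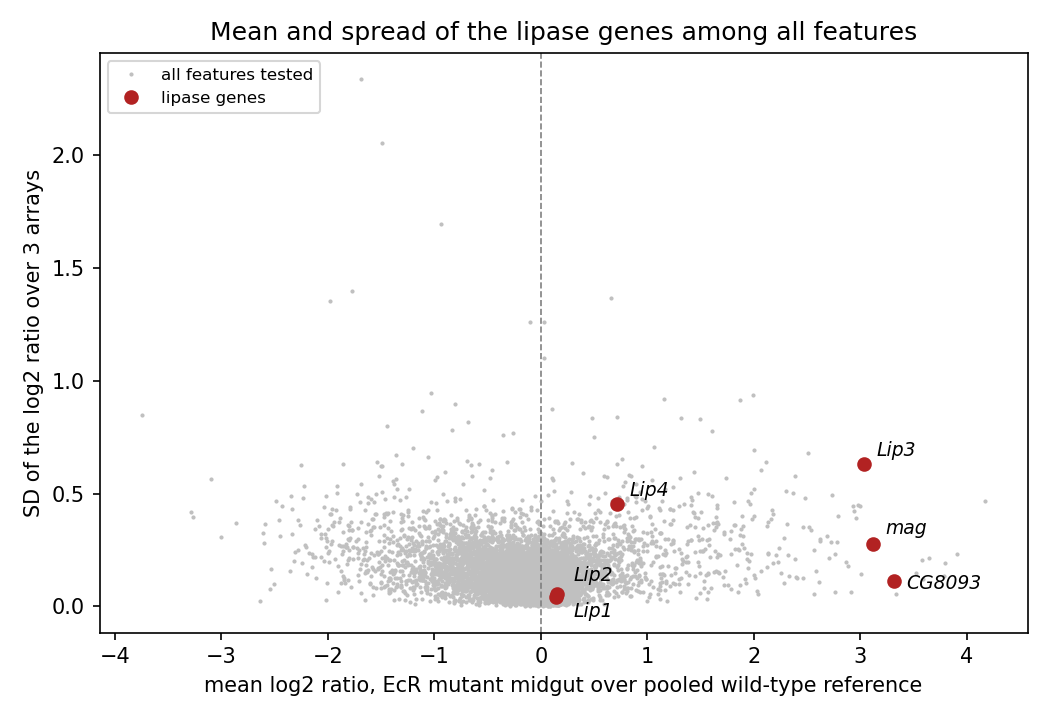
Mean log2 ratio (EcR mutant midgut over pooled reference) against the SD over 3 arrays, for 13026 features in grey and the 6 lipase genes in red. CG8093, mag and Lip3 stand at the right edge with SDs of 0.11, 0.28 and 0.63, and Lip1 and Lip2 lie in the dense cloud near 0.

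Other genes listed as acid lipases were mostly near 0. The list was written from general knowledge of the family and was not checked against protein sequences, so it may lack members or hold others. It held 17 further genes, 14 of which were tested, and CG17097, CG31089 and CG31091 were not analysed here. Of the 14, 5 were higher and 1 lower, 8 failed the test, and the median log2 ratio was 0.17. The share that passed in either direction, 42.9%, is near the 37.0% over all features. For calls in the higher direction alone, the comparison is 5 of 14 against 13.4% over all features, and it was not tested. The next highest after mag and Lip3 was CG2772, with 1.48, 1.09 and 1.67 on replicates 3, 4 and 6 (mean 1.41 ± 0.29; limma adjusted p = 8.81e-05), and it was followed by CG3635 with 1.23, 0.87 and 1.01 (mean 1.04 ± 0.18; adjusted p = 9.44e-05). No array of CG2772 or CG3635 reached the lowest array of Lip3.

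Smaller rises were found for CG11406 at 0.39 ± 0.13, CG31872 at 0.29 ± 0.13 and CG18302 at 0.25 ± 0.018 (SD, n = 3 each; limma adjusted p = 0.00482, 0.0175 and 0.0145). The probes of CG11406 differed, with means of 0.70 and 0.085, and the second did not pass on its own. CG6753 was the family member that fell, at -0.64, -0.23 and -0.63 (mean -0.50 ± 0.23; adjusted p = 0.00541). The lower family members were sensitive to single arrays: without replicate 3, 3 of the 14 passed, all of them higher, and CG6753, CG31872 and CG18302 no longer did. CG31872 also lost its call without replicate 4 (limma adjusted p = 0.061), and CG18302 without replicate 6 (adjusted p = 0.0534). On receptor centring neither CG31872 nor CG18302 passed (adjusted p = 0.0845 and 0.0866). Without centring 9 were higher and 1 lower, and on receptor centring 3 were higher and 1 lower.

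The neutral lipases are the fly relatives of pancreatic lipase, and their list was written in the same way and likewise not checked against sequences. Of 30 genes listed, 26 were tested, 13 were higher and 0 lower, 13 failed the test, and the median was 0.31. The share that passed was 50.0%, against 37.0% over all features, and it was also 50.0% for the 20 acid lipase genes tested, the 6 genes above included. All 13 calls among the neutral lipases were higher, against 36.1% of the calls over all features, a share that depends on where 0 is set. As a share of what was tested, 50.0% of the neutral lipases were higher, against 13.4% of all features. The differences between these shares were not tested. CG6296 led the neutral lipases with 2.66, 2.49 and 2.68 on replicates 3, 4 and 6 (mean 2.61 ± 0.11; limma adjusted p = 1.87e-06), below CG8093, mag and the mean of Lip3. It was followed by CG6271 at 2.00 ± 0.69 (adjusted p = 4.87e-04), CG17191 at 1.96 ± 0.45 (adjusted p = 9.22e-05) and CG6283 at 1.32 ± 0.84 (adjusted p = 0.00781). Replicate 6 was the lowest array for CG6271, CG17191, CG6283, CG17192 and CG6295, with 1.21, 1.51, 0.38, 0.27 and 0.14, whereas mag was highest there. CG10163 at 0.80, CG17192 at 0.78, CG6295 at 0.67, CG5162 at 0.60, CG10116 at 0.54 and CG4267 at 0.48 were also higher. Without replicate 3, 6 of the 26 passed, and CG10163 (0.51, adjusted p = 0.059), CG17192 (adjusted p = 0.0743), CG6295 (adjusted p = 0.119) and CG6283 (adjusted p = 0.0819) no longer did. CG6295 also lost its call without replicate 4 (adjusted p = 0.0657), as did CG6283 with robust eBayes (adjusted p = 0.0656). Of the 26, 10 were higher and 1 lower on receptor centring. CG6296, CG6295, CG17192, CG17191, CG6283, CG6277 and CG6271 lie side by side on chromosome arm 3R in the gene table (assembly Release 6 plus ISO1 MT), and whether their probes tell these related transcripts apart was not tested.

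**Figure D3:**
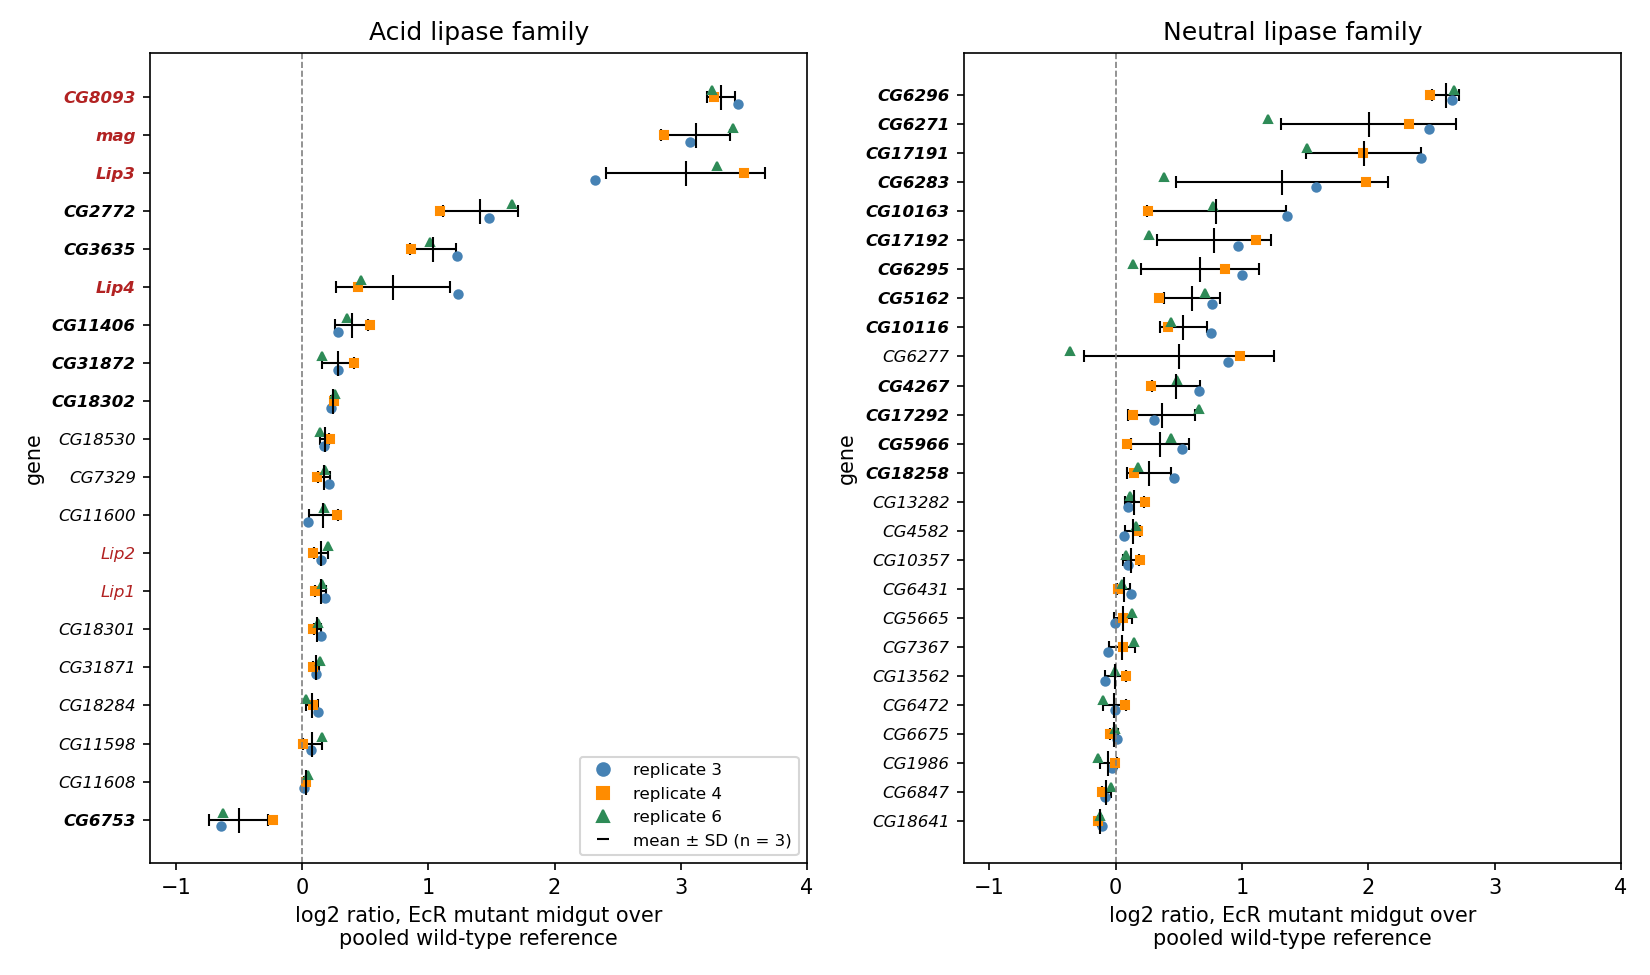
Log2 ratios on each array with mean and SD (n = 3) for the 20 acid lipase genes tested (left, the 6 genes of this account in red) and the 26 neutral lipase genes tested (right), with names in bold where the limma adjusted p was under 0.05. CG8093, mag and Lip3 lie above every other lipase gene tested by their mean, and CG6753 is the gene that was lower.

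Genes of lipid uptake, transport and storage, a list of 27 with 22 tested, moved mostly the other way. Of these, 4 were higher and 13 lower, 5 failed the test, and the median was -0.34. Over all features 23.7% were lower. Fat body markers and those of trachea and cuticle were lower as well, with the medians given above, apolpp is in both the lipid and the fat body list, and the part of these tissues in the result was not tested. The fatty acid binding protein gene fabp had -1.64, -1.83 and -2.43 on replicates 3, 4 and 6 (mean -1.97 ± 0.41; limma adjusted p = 6.18e-05). Enzymes of glycerolipid synthesis were lower too: mino, an acyltransferase of the first step, was at -1.63 ± 0.15, Agpat3 at -0.93 ± 0.15 over 3 probes, the phosphatidate phosphatase gene Lpin at -0.82 ± 0.21, and mdy, which makes triglyceride from diglyceride, at -1.21 ± 0.31 (SD, n = 3 each). The storage lipase gene bmm, which acts on lipid droplets inside cells, was lower at -1.06 ± 0.10 (adjusted p = 3.53e-05), the opposite sign to mag. The fatty acid transport genes Fatp1 and Fatp3 stood at -0.98 and -0.76. The lipoprotein receptor gene LpR1 was higher at 1.24 ± 0.43 and the desaturase gene Desat1 at 0.91 ± 0.30. Counted without replicate 3, 3 were higher and 12 lower.

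On the chromosomes, the highest ratio among the tested genes around mag, Lip3 and CG8093 was that of CheA87a. In the gene table Lip3 lies on chromosome arm 3R, and its tested neighbours CheA87a and CG9813 had ratios of 0.30 ± 0.075 (limma adjusted p = 0.00814, and 0.0814 without replicate 3) and 0.079. For mag on arm 3L, the neighbours CG5199, atk and Tdh were at -0.0080, 0.11 and -0.049, and none passed. For CG8093 on arm 2R, row and CG11808 were at -0.030 and 0.075 and did not pass, and mRpL41, a mitochondrial ribosomal protein gene, was lower at -0.46 (adjusted p = 0.00224). Lip1 and Lip2 adjoin each other on arm 2L, and the genes around them (CG17108, CG7300, CG6415 and CG6431) had ratios of 0.18, 0.044, 0.14 and 0.062 without a call. Lip4 lies between Lrr47 at -0.11 and CG18301 at 0.12, which did not pass, and beyond these are Fatp1, which was lower, and the small rise of CG18302. CG42764, Dic1, CG34309 and Ir51b were not analysed here.

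The genes most like each called lipase gene were found by the root mean square difference of the log2 ratios over 3 arrays, among named genes. For mag they were CG32302 at a difference of 0.23, Amy-d, an amylase gene, at 0.23 and Acbp6, of the acyl-CoA binding proteins, at 0.25, with means of 3.0, 2.94 and 2.89. For CG8093 they were CG10911, CG15043 and CG5550, with means of 3.34, 3.52 and 3.58, and CG10911 differed by 0.053. Neither mag nor Lip3 had a gene that close. For Lip3, CG4362 differed by 0.24, Phae2, of the serine protease family, by 0.45 and CG13323 by 0.51. Lip4 was nearest to CG15533 at 0.10, to trbl, a pseudokinase gene, at 0.12 and to lama at 0.15, all of which were highest on replicate 3. With 3 arrays, likeness here is mainly likeness in size.

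The calls of CG8093, mag, Lip3 and Lip4 held under every centring and scaling tried, while those of Lip1 and Lip2 turned on centring as given above. Under 12 alternatives, the mean ranged from 3.22 to 3.38 for CG8093, 2.97 to 3.24 for mag, 2.81 to 3.40 for Lip3 and 0.46 to 0.85 for Lip4. The 4 genes passed in 11 of the 12, with adjusted p values up to 2.44e-04 for CG8093, 5.82e-04 for mag, 7.42e-04 for Lip3 and 0.0223 for Lip4. The exception was a plain one-sample test that uses each gene's own variance, where the adjusted p values were 0.0743, 0.0792, 0.0964 and 0.222. At an unadjusted p under 0.05 that test passed 5 of the 6 genes, all but Lip4, and over all features it passed 4366 before and 4 after adjustment.

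**Figure D4:**
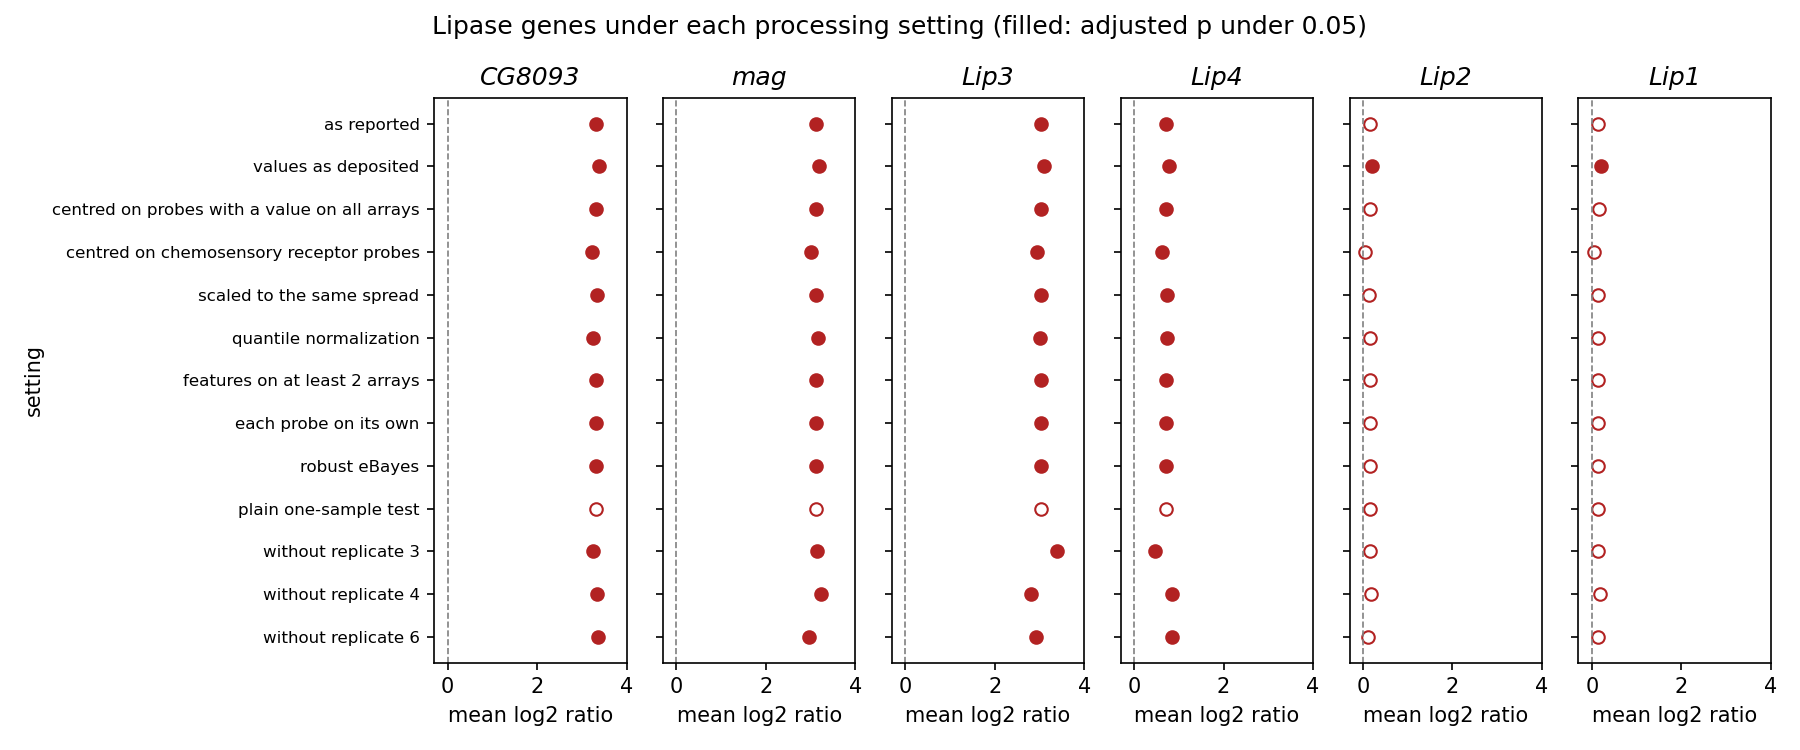
Mean log2 ratio (EcR mutant midgut over pooled reference) of each lipase gene as reported and under 12 alternative settings, filled where the adjusted p was under 0.05. CG8093, mag, Lip3 and Lip4 are filled everywhere but under the plain one-sample test, and Lip1 and Lip2 are filled for the values as deposited alone.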

How the data were processed

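The authors deposited 1 log2 ratio per probe and array, of 20000 probes. Below 1.5, raising 2 to these values, after adding a constant for the array, gave multiples of 0.001 (tolerance 0.05 of a step) in 99.4% to 100% of cases, against 11.9% to 16.7% for a natural log, log10 or inverse ratio, so the deposited values were taken as log2. Per the labels' protocols, the authors amplified total RNA through in vitro transcription. Scanner software, background correction, spot filters and normalization are not given in the labels, and with no intensities used here signal over background is unknown. Replicates 3, 4 and 6 had 18991, 14097 and 14069 measured probes, with medians of 0.0475, 0.0483 and 0.0858 as deposited.

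Of the probes, 10828 had 1 gene symbol, 227 several and 8945 none in the platform annotation, and 10824 of the first matched the gene table by ID. After median centring of each array, the probes of a gene were averaged, and features on all arrays were tested in limma 3.58.1 under R 4.3.3 with lmFit and eBayes (6.89 degrees of freedom, prior included). The common reference is 1 control sample whose own spread is left out. On simulated data with 200 of 13026 features changed, 100% were recovered at each of the log2 sizes 0.5, 1 and 2, with 23 false calls (10.3% of calls). That false share is above the threshold of 0.05. The simulated noise was drawn independently for each feature and array from the moderated SDs, with no effect of array, dye or reference. Far fewer features were changed than the 4824 called in the data, so the recovery does not carry over to them.

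The members, lists and alternatives were chosen with earlier results of these data known, and the lists were written from general knowledge of the gene families, unchecked against protein sequences. The text names the 6 genes, EcR, Hr96, up to 10 passing genes per list with 1 sign on all arrays, the 3 genes nearest to each called member and the 2 protein-coding genes on each side. Alternatives were values as deposited, centring on probes measured on all arrays or on receptor probes, quantile normalization, equal spread, single probes, features on at least 2 arrays, robust eBayes, a plain one-sample test, each replicate left out, a threshold of 0.01 and a minimum change of 1.5-fold. Their use on the lipid list and the markers was chosen after seeing the data. Figures and summaries used matplotlib 3.10.9, scipy 1.17.1, numpy 2.4.6 and pandas 2.3.3 under Python 3.11.15.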

Additional observations from a re-analysis of the deposited data

How the results depend on the processing

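The 6 lipase genes gave 4 calls under every alternative except the values as deposited, with 6, and the plain one-sample test, with 0, where 4 of all features passed and the lists of acid lipases, neutral lipases and lipid genes gave 0, 0 and 0. Leaving out a replicate gave 4 calls among the lipase genes each time, 3 to 5 in the acid lipase family, 6 to 13 in the neutral lipase family, 15 to 17 in the lipid list and 2784 to 4625 over all features, with the lowest count in each of the 3 lists and over all features without replicate 3. An adjusted p under 0.01 left 3119 features and 8 neutral lipases, and a change of at least 1.5-fold left 1772 features, 2 further acid lipases and 8 neutral lipases, since both thresholds are stricter. On the values as deposited the acid lipase family gave 10 calls. The cause of the change with centring and without replicate 3 was not tested. Receptor centring moved the median of all features by -0.10.

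Over the 60 genes named, 639 of 669 values kept their direction and side of the threshold when the plain test was left aside, 16 lost the call, 5 gained one and 9 changed sign, none of which passed before or after. Those were CG5199 (0.052 as deposited, and from -0.052 to 0.073 without 1 replicate), row (0.030 as deposited, and from -0.13 to 0.065 without 1 replicate), Tdh (0.012 as deposited), and, on receptor centring, CG7300 (-0.056), CG6431 (-0.037), CG9813 (-0.020) and CG11808 (-0.024). Single probes counted as a gene only where all its probes passed. No paired analysis was possible because there is 1 group against 1 common reference. Signal over background was not known, which limits what can be said of genes with ratios near 0.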

Other observations

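The position of the acid lipase genes went with their ratios, a pattern seen in the values and given here without a test. CG8093, mag and Lip3 were chosen with earlier results of these data known, so the pattern is a description and not independent evidence. Limits other than the 10 protein-coding genes used below are not given here. The lists were written from general knowledge and were not checked against protein sequences, so a gene counted as alone may have a relative nearby that is not listed. Of the 23 genes in the members and the acid lipase list, 6 have no other listed gene within 10 protein-coding genes, namely CG8093, mag, Lip3, CG2772, CG3635 and CG11406. All 6 were higher, also without any 1 replicate, with a median log2 ratio of 2.23 and a range of 0.39 to 3.32. The high median comes from CG8093, mag and Lip3, while CG2772, CG3635 and CG11406 had means of 1.41, 1.04 and 0.39. The probes of CG11406 had means of 0.70 and 0.085, and the second did not pass on its own (limma adjusted p = 0.374). The other 17 lie in groups: 10 on arm 2L from Lip4 to Lip2, within a stretch of 25 protein-coding genes, 5 side by side on arm 3R from CG18530 to CG6753, and CG31091 with CG31089. Of these, 14 were tested, 3 were higher and 1 lower, 10 failed the test, the median was 0.15, and Lip4 had the highest value at 0.72. Over all features tested, 37.0% passed, 13.4% as higher and 23.7% as lower. Without replicate 3, 1 of the 14 was higher and 0 lower.

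The neutral lipases showed the other arrangement. Of 10 tested genes with another listed neutral lipase within 10 protein-coding genes, 8 were higher and 2 failed the test, with a median of 0.72. Of 16 tested genes without one, 5 were higher, with a median of 0.092. Over all features 37.0% passed and 13.4% were higher. Without replicate 3 these counts were 4 of 10 and 2 of 16. The 10 are the 7 genes from CG6296 to CG6271 that lie side by side, of which 6 were higher (3 without replicate 3), the pair CG18258 and CG5162, both higher, and CG18641 at -0.12, which did not pass. In the row of 7, CG6277 did not pass, with 0.89, 0.98 and -0.36 on replicates 3, 4 and 6. Most of the 8 calls thus lie in this row, and whether the probes there tell the related transcripts apart was not tested.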
